A study of Mus musculus with 6 samples.

Results

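The peroxiredoxins, catalase and the superoxide dismutases are the enzymes that dispose of superoxide and hydrogen peroxide inside the cell. The 9 genes were taken by symbol, Prdx1 to Prdx6, Cat, Sod1 and Sod2, out of 54232 gene IDs in the count files, and all 9 passed the filter on low counts. They were followed in fetal liver cells of E13.5 mouse embryos of the strain C57/B6, kept only if they lacked Ter-119, an antigen that red cell precursors gain as they mature. The 30 h group is 3 libraries of these progenitor cells after 30 h in medium with erythropoietin (EPO), the hormone that drives red cell production, with the solvent DMSO added at 24 h for the last 6 h. The day 0 group is 3 libraries of the purified cells with no treatment, and no engineered allele is named for either group. Time, culture, EPO and DMSO changed together, so their effects cannot be told apart. The labels do not say whether replicates came from separate embryos or cultures, so the p-values reflect only the spread among the 6 libraries, which may be technical.

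Superoxide dismutases turn superoxide into hydrogen peroxide, and catalase and the peroxiredoxins turn hydrogen peroxide into water. A peroxiredoxin does this with a reactive cysteine that peroxide oxidises and that thioredoxin, or glutathione in the case of Prdx6, reduces again; overoxidised cysteines of several peroxiredoxins are repaired by sulfiredoxin. Red cells carry oxygen and iron at high concentration, and peroxiredoxin 2, catalase and glutathione peroxidase 1 are their main peroxide-removing enzymes. Mice without Prdx2 are known to develop haemolytic anaemia.

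Library totals ranged from 19241780 to 29949173 counts, and the enzymes had between 1913 and 58859 counts in a library. Counting error was thus small beside the levels, though not for every enzyme beside the narrow spread between day 0 libraries. The spread between libraries was larger at 30 h, with a biological coefficient of variation of 20.5%, against 5.28% at day 0. On raw counts, 30 h replicate 3 stood furthest from the other libraries of its group. Levels are TMM-scaled CPM, a count relative to its library's total after a scaling that assumes most genes are unchanged, and each ± is an SD over 3 libraries. Changes were tested with edgeR's quasi-likelihood test with Benjamini-Hochberg adjustment over 16150 genes and a threshold of 0.05. The summed level of 10 erythroid markers was 92812 to 132941 CPM at 30 h, against 1513 to 1675 CPM at day 0, with all 10 higher and Hbb-bs, an adult beta globin, the most abundant. The summed level of 11 hepatoblast markers, of which Afp was the most abundant, was 832 to 2391 CPM at 30 h, against 14003 to 15922 CPM at day 0, and 9 of the 11 were lower. For 8 mesenchymal markers, of which Col1a1 was the most abundant, the sums were 24.2 to 56.9 CPM at 30 h, against 1505 to 1918 CPM at day 0. For 8 endothelial markers they were 147 to 187 CPM at 30 h and 272 to 294 CPM at day 0. Egfl7, the most abundant, averaged 127 ± 26.1 CPM at 30 h and 97.2 ± 5.33 CPM at day 0, which was most of the 30 h sum, and was called higher (edgeR adjusted p = 0.0468), though not by limma-trend (adjusted p = 0.0575). The other 7 were lower by unlike amounts, as 2 genes named after their values were seen show. Cdh5 was at 0.22 ± 0.10 CPM at 30 h and 35.01 ± 1.86 CPM at day 0. Pecam1 was only 1.73-fold lower, at 28.4 ± 3.61 CPM at 30 h and 49.2 ± 2.25 CPM at day 0. The sums for 10 macrophage markers, led by Csf1r, were 153 to 234 CPM at 30 h and 147 to 166 CPM at day 0, with 3 higher and 3 lower of 9 tested. Those for 8 granulocyte markers were 4010 to 6118 CPM at 30 h and 3402 to 3518 CPM at day 0, but 3 were higher and 3 lower. Among the higher was S100a9, named after its values were seen, at 6.30-fold. Among the lower was Mpo, the most abundant over both groups, at 546 ± 55.5 CPM at 30 h and 1910.4 ± 54.7 CPM at day 0. Megakaryocyte markers, 6 genes, summed to 597 to 975 CPM at 30 h and 570.0 to 688 CPM at day 0, with Pf4, the most abundant, 2.91-fold higher and 3 others lower. The sums for 6 B lymphoid markers, led by Cd79b, were 11.99 to 15.7 CPM at 30 h and 25.3 to 27.1 CPM at day 0. In bulk RNA, more cells of a type and more RNA per cell cannot be told apart, and the part of these shifts in the results below was not tested.

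RefSeq promoter windows of GRCm38.p6, which run from 250 bases before to 50 bases after the annotated start, were found for 8 of the 9 genes. The windows of Prdx2 and Prdx3 are shown because these are the peroxiredoxins with the largest changes. Lower case is the strand of the gene, 5′ to 3′, and capitals mark each match to CCNCNCCC, a loose form of the CACC box bound by KLF1, an erythroid transcription factor. The Prdx2 window lies at chr8:84969372-84969671 on the plus strand and the Prdx3 window at chr19:60874489-60874788 on the minus strand.
Prdx2 promoter: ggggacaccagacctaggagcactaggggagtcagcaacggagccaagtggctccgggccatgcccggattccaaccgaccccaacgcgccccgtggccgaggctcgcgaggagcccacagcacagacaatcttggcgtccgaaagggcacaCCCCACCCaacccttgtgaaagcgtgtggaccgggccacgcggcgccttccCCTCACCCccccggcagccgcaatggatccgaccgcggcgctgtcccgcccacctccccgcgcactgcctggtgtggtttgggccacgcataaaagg
Prdx3 promoter: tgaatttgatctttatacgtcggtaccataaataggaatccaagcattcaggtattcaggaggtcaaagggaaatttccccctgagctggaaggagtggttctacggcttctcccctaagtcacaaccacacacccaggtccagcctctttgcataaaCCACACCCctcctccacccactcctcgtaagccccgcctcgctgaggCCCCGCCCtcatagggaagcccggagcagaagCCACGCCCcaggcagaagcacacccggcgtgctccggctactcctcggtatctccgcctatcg
The Prdx2 window held 2 matches, starting 98 and 47 bases before the start, and the Prdx3 window held 3, starting 92, 45 and 13 bases before it. This loose pattern was in the windows of 8 of 8 enzymes, searched on both strands, and in 49.5% of all 32851 windows in the table, so it is a common feature. The GATA pattern AGATAA was in 0 of 8 enzyme windows and in 11.2% of all windows, and the forkhead pattern GTAAACA was in 0 of 8 and in 3.65% of all. The core of the antioxidant response element, TGACNNNGC, through which NRF2 acts, was in 2 of 8 enzyme windows, those of Prdx1 and Sod1, and in 12.4% of all windows. Both matches read on the reverse strand and are shown in capitals within 29 bases, at chr4:116685456-116685484 for Prdx1 and chr16:90220696-90220724 for Sod1, plus strand.
Prdx1 element: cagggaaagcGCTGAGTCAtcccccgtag
Sod1 element: gccaaggtggGCGTGGTCAgactcaggcc
The Prdx1 match starts 133 bases and the Sod1 match 56 bases before the start. In the Sod1 window it shares bases with a CCNCNCCC match. A match of letters is a description of these windows and says nothing about binding.

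Of the 9 enzymes, 5 were higher at 30 h, 0 were lower and 4 did not pass the threshold. Among all genes tested by edgeR, 34.4% were called higher and 40.1% lower, 74.5% in either direction, so a call was the usual outcome. The 5 were Prdx2, Cat, Prdx3, Sod1 and Prdx5, with changes between 1.83-fold and 5.02-fold. Of the 9, 0 were lower at an unadjusted edgeR p under 0.05, and 0 were called lower by DESeq2 or limma-trend. The libraries of the groups did not overlap for 6 enzymes that were higher and 1 that was lower, against 36.3% and 43.4% of all genes, and 79.7% in either direction. With library totals alone in place of TMM, the same 5 were called higher and 3 of the 9 were called lower, against 22.3% and 54.4% of all genes. The median log2 change was 0.87 over the 9 enzymes and -0.09 over all genes tested.

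**Figure D1:**
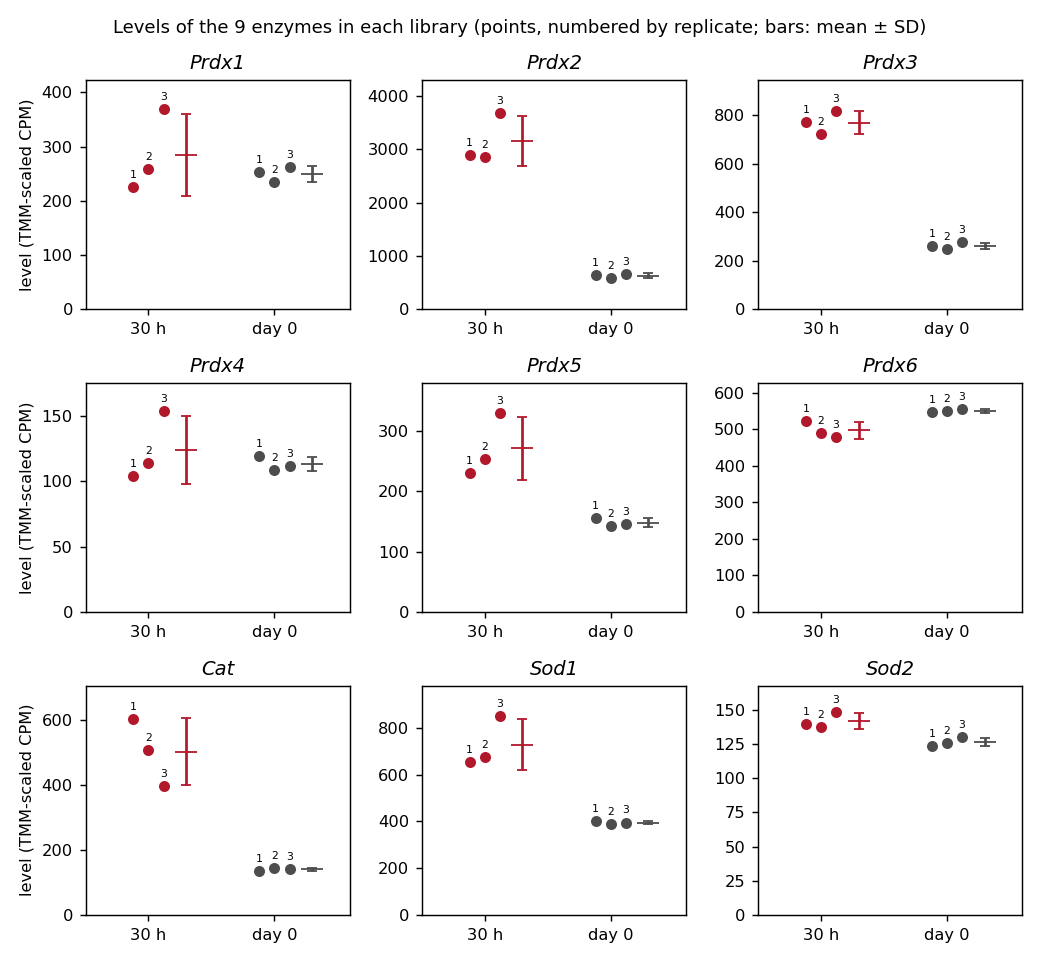
Level of each enzyme in each library, in TMM-scaled CPM on a linear axis from 0 in each panel, with 30 h libraries left of day 0 libraries, points for libraries numbered by replicate and bars for the mean and SD (n = 3). Prdx2 lies between 2863 and 3693 CPM in the 30 h libraries, and between 586 and 667 CPM in the day 0 libraries.

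Prdx2, the cytosolic peroxiredoxin of red cells, had the largest change of the 9. The gene (ENSMUSG00000005161) lies at chr8:84969587-84974834 on the plus strand of mm10. It had 2904, 2863 and 3693 CPM in the 30 h libraries, against 632, 586 and 667 CPM in the day 0 libraries. Every 30 h library was above every day 0 library, with replicate 3 the highest at 30 h. The mean was 3154 ± 468 CPM at 30 h and 629 ± 40.8 CPM at day 0, a 5.02-fold difference (log2 change 2.33, SE 0.13, edgeR adjusted p = 3.48e-06). A share of 5.67% of the Prdx2 exon bases overlaps exons of Junb and 5.80% those of Rnaseh2a, both on the opposite strand. The sources used here do not say whether reads were counted by strand. Junb averaged 63.1 CPM at 30 h and 38.5 CPM at day 0, and Rnaseh2a 144 CPM at 30 h and 97.6 CPM at day 0, far below Prdx2 in both groups.

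Prdx1, the other typical cytosolic peroxiredoxin, did not follow Prdx2. The gene lies at chr4:116685544-116700822 on the plus strand. It had 226, 259 and 370 CPM in the 30 h libraries, against 253, 234 and 263 CPM in the day 0 libraries. The groups overlapped, and 30 h replicate 3 alone was above the day 0 range. The log2 change was 0.19 (SE 0.18, edgeR adjusted p = 0.363). It was -0.041 without 30 h replicate 3 and -0.31 with scaling to library totals alone.

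Prdx3 works in mitochondria. Its gene lies at chr19:60864051-60874556 on the minus strand, and it had 771, 721 and 817 CPM in the 30 h libraries, against 259, 247 and 275 CPM in the day 0 libraries. The groups were well apart and the libraries within each were close. The mean was 770 ± 47.6 CPM at 30 h and 260 ± 14.1 CPM at day 0, a 2.96-fold difference (log2 change 1.56, SE 0.10, edgeR adjusted p = 4.63e-06).

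Prdx5 is found in mitochondria, peroxisomes and the cytosol. Its gene lies at chr19:6906697-6910106 on the minus strand, and it had 230, 252 and 329 CPM in the 30 h libraries, against 156, 142 and 145 CPM in the day 0 libraries. The groups did not overlap, and replicate 3 was again the highest at 30 h. The mean was 271 ± 52.0 CPM at 30 h and 148 ± 7.35 CPM at day 0, a 1.83-fold difference (log2 change 0.87, SE 0.14, edgeR adjusted p = 0.000764). Scaled to library totals alone, Prdx5 had a log2 change of 0.38. A share of 19.1% of the Prdx5 exon bases overlaps exons of Trmt112 on the opposite strand, and Trmt112 was counted at 2.06 CPM at 30 h and 2.14 CPM at day 0. Without known strandedness, reads of Trmt112 may have been lost or counted to Prdx5, so the level of Prdx5 and its change are uncertain to that extent.

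Prdx4, the peroxiredoxin of the endoplasmic reticulum, lies at chrX:155323918-155340754 on the minus strand. It had 104, 114 and 154 CPM in the 30 h libraries, against 119, 109 and 112 CPM in the day 0 libraries. The groups overlapped, and the log2 change was 0.13 (SE 0.15, edgeR adjusted p = 0.452). Its direction depended on the scaling and on 1 library: it was -0.36 by totals only (edgeR adjusted p = 0.047) and -0.049 without 30 h replicate 3.

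Prdx6, which uses a single reactive cysteine and glutathione, lies at chr1:161240112-161251219 on the minus strand. It had 523, 489 and 480 CPM in the 30 h libraries, against 546, 550 and 556 CPM in the day 0 libraries. Every 30 h library was below every day 0 library, by a small margin. The log2 change was -0.15 (SE 0.09, edgeR adjusted p = 0.158), close to the median of -0.09 for all genes. With totals only it was -0.64 (edgeR adjusted p = 0.000288), where the median of all genes was -0.58, and with upper-quartile scaling -0.28 (edgeR adjusted p = 0.0214), where that median was -0.23.

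Cat, the peroxisomal enzyme that splits hydrogen peroxide without a reductant, lies at chr2:103453849-103485160 on the minus strand. It had 605, 509 and 397 CPM in the 30 h libraries, against 136, 143 and 142 CPM in the day 0 libraries. The groups were far apart, and replicate 3, the highest 30 h library for Prdx2, was the lowest for Cat. The mean was 504 ± 104 CPM at 30 h and 140 ± 3.77 CPM at day 0, a 3.59-fold difference (log2 change 1.84, SE 0.16, edgeR adjusted p = 2.19e-05). Hepatocytes are also known for high catalase. The hepatoblast marker sum was 832, 2211 and 2391 CPM in 30 h replicates 1 to 3, lower in each than at day 0. The part of cell make-up in the change of Cat was not tested.

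Sod1, the copper and zinc enzyme of the cytosol, lies at chr16:90220754-90226329 on the plus strand. It had 655, 676 and 853 CPM in the 30 h libraries, against 402, 388 and 395 CPM in the day 0 libraries. The groups did not overlap. The mean was 728 ± 109 CPM at 30 h and 395 ± 7.37 CPM at day 0, a 1.84-fold difference (log2 change 0.88, SE 0.12, edgeR adjusted p = 0.000286). Scaled to library totals alone, Sod1 had a log2 change of 0.39.

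Sod2, the manganese enzyme of mitochondria, lies at chr17:13006846-13040063 on the plus strand. It had 139, 138 and 149 CPM in the 30 h libraries, against 124, 126 and 130 CPM in the day 0 libraries. The groups did not overlap, but the distance was small and the log2 change was 0.17 (SE 0.09, edgeR adjusted p = 0.12). Without 30 h replicate 3 Sod2 was called higher at a log2 change of 0.14 (edgeR adjusted p = 0.0422), and with totals only it was called lower at -0.32 (edgeR adjusted p = 0.00873). Of the 2 mitochondrial enzymes Prdx3 and Sod2, one acting on peroxide and the other on the superoxide it comes from, Prdx3 was called under each of the 18 alternatives run and Sod2 under 2.

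**Figure D2:**
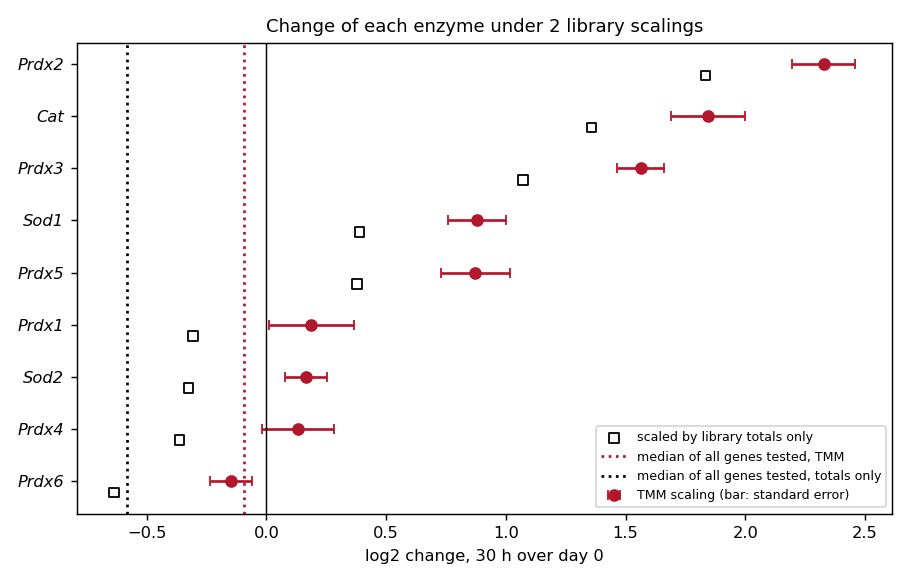
Log2 change of each enzyme, 30 h over day 0, under TMM and under scaling to library totals only, with bars for the standard error of the TMM values and dotted lines at the median change of all genes under each. Prdx2, Cat, Prdx3, Sod1 and Prdx5 are above 0 under both, whereas Prdx1, Prdx4 and Sod2 are at -0.31, -0.36 and -0.32 by totals only.

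Shares within a library do not depend on scaling. Counts per kilobase of exon were summed over the 6 peroxiredoxins, and Prdx2 held 52.5%, 52.6% and 54.7% of that sum in the 30 h libraries, against 29.3%, 28.7% and 30.1% in the day 0 libraries. Prdx2 was thus the majority of peroxiredoxin transcripts at 30 h in every library. Prdx3 held 27.0% ± 1.90 at 30 h and 25.1% ± 0.45 at day 0, and the groups overlapped (exact permutation p = 0.3). Prdx6 held 5.40% ± 0.78 at 30 h and 16.3% ± 0.66 at day 0. Prdx1 held 4.78% ± 0.70 at 30 h and 11.7% ± 0.18 at day 0. The shares of Prdx5 and Prdx4 were also lower at 30 h, with mean differences of -3.35 and -4.65 percentage points. All of these but Prdx3 were at the smallest two-sided exact permutation p that 3 against 3 libraries allow, p = 0.1, or 0.111 adjusted over 10 tests of shares and ratios, so none could pass 0.05.

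**Figure D3:**
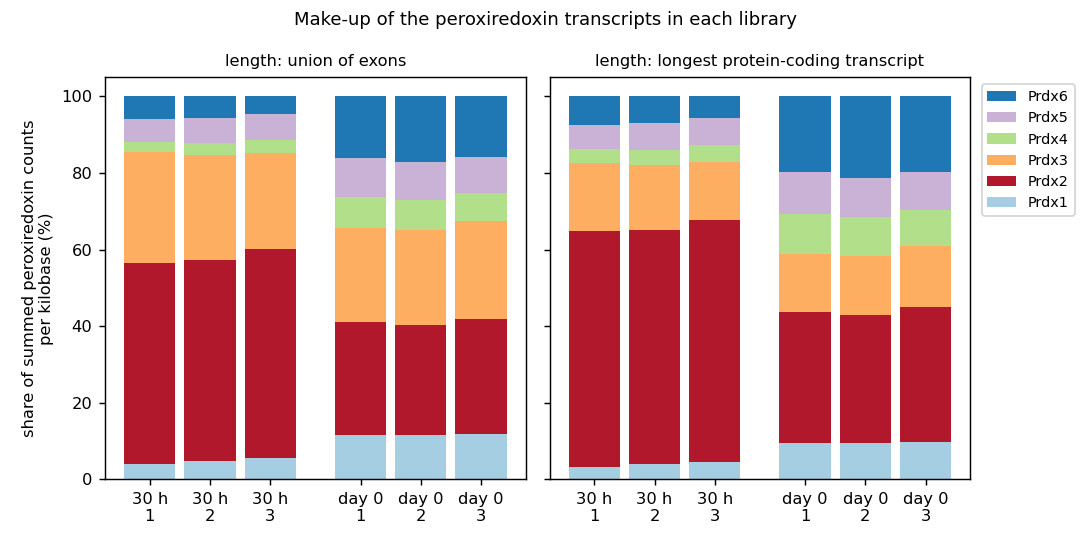
Share of the summed peroxiredoxin level held by each of Prdx1 to Prdx6, in percent, as stacked bars per library, with 30 h libraries left of day 0 libraries and counts divided by the union of exons in the left panel and by the longest protein-coding transcript in the right. The Prdx2 share averages 53.3% at 30 h and 29.3% at day 0 in the left panel, and 62.0% at 30 h and 34.3% at day 0 in the right.

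The log2 ratio of Prdx2 counts to Prdx1 counts was 3.69, 3.47 and 3.32 in the 30 h libraries, against 1.32, 1.32 and 1.34 in the day 0 libraries. Prdx2 had 11.3 times as many counts as Prdx1 at 30 h, against 2.51 times at day 0, as arithmetic means of the libraries' ratios. The log2 ratio of Prdx2 to Prdx3 was higher at 30 h by 0.76, and that of Sod1 to Sod2 by 0.71, without overlap of the libraries. The log2 ratio of Cat to Prdx2 was -2.26, -2.49 and -3.22 in the 30 h libraries, against -2.22, -2.03 and -2.24 in the day 0 libraries. It differed by -0.50 on average, but by -0.22 without 30 h replicate 3, and the closest libraries were nearly equal. Each of these 4 ratios was at the smallest exact permutation p, 0.1. The 9 enzymes together took 0.517%, 0.525% and 0.593% of all counts in the 30 h libraries, against 0.310%, 0.299% and 0.319% in the day 0 libraries (exact permutation p = 0.1).

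Compared per kilobase of exon, the order of levels at 30 h began with Prdx2 at 1034 ± 153 CPM per kilobase and Prdx3 at 521 ± 32.2. Cat, at 193 ± 39.9, and Sod1, at 183 ± 27.4, came next and did not differ beyond their spread. Prdx5 at 127 ± 24.3, Prdx6 at 103 ± 4.73 and Prdx1 at 93.6 ± 24.8 each overlapped their neighbour. Prdx4 at 59.0 ± 12.5 and Sod2 at 14.2 ± 0.58 closed the order. At day 0 Prdx2 led at 206 ± 13.4 CPM per kilobase, before Prdx3 at 176 ± 9.51, Prdx6 at 115 ± 1.08 and Sod1 at 99.5 ± 1.86. Prdx1 at 82.1 ± 4.77 and Prdx5 at 69.1 ± 3.43 followed, and Prdx4 at 53.8 ± 2.60 and Cat at 53.7 ± 1.44 overlapped near the end, above Sod2 at 12.6 ± 0.31. These orders depend on the length used. Divided by the longest protein-coding transcript, Cat came sixth at 30 h, overlapping its neighbours Prdx6 and Prdx4, and eighth at day 0. On that scale Sod1 came second at 30 h with 1136 ± 169 CPM per kilobase, and first at day 0 with 616 ± 11.5, above Prdx2 at 390 ± 25.3.

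By likeness over the 6 libraries, measured as the distance between patterns of log2(CPM + 1) centred on each gene's own mean among 9124 genes with a mean of at least 10 CPM, the nearest to Prdx2 were Trappc6a (distance 0.0985), Reep5 (0.104), H2-Ab1 (0.113), Ifitm1 (0.128) and Tspan8 (0.134). Trappc6a had 190, 195 and 262 CPM in the 30 h libraries, against 43.7, 40.3 and 44.3 CPM in the day 0 libraries, highest in replicate 3 as Prdx2 was. The nearest to Cat were Tdrd7 (0.0746), Tbc1d31 (0.0755), Tut7 (0.0789), Picalm (0.0903) and Cep162 (0.0938). Tdrd7 had 57.1, 48.0 and 37.5 CPM in the 30 h libraries, against 12.7, 13.6 and 13.1 CPM in the day 0 libraries, lowest in replicate 3 at 30 h as Cat was. The genes were picked for likeness over these same 6 libraries, so a shared pattern in replicate 3 follows from the choice. The likeness is a description with no test.

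The reductants and partners of these enzymes split by member. Of 10 genes, 6 (60%) were higher at 30 h, 2 (20%) lower and 2 not past the threshold. Of all genes, 34.4% were higher and 40.1% lower. The median log2 change of the 10 was 0.73. The 2 lower genes, Txnrd3 and Gstp1, named after their values were seen, were 1.80-fold and 1.29-fold lower, and the count of lower genes was 1 with DESeq2, 0 against a 1.5-fold minimum and 4 with totals only. Srxn1, the sulfiredoxin that repairs overoxidised peroxiredoxins, averaged 218 ± 20.8 CPM at 30 h and 17.4 ± 0.91 CPM at day 0, a 12.5-fold difference (edgeR adjusted p = 4.85e-07). Txnrd2, the mitochondrial thioredoxin reductase, averaged 281 ± 13.3 CPM at 30 h and 63.2 ± 2.00 CPM at day 0, a 4.44-fold difference (edgeR adjusted p = 1.09e-06). Mitochondrial thioredoxin itself, Txn2, averaged 303 ± 32.7 CPM at 30 h and 298 ± 4.39 CPM at day 0 (edgeR adjusted p = 0.841). Of the cytosolic pair, named after their values were seen as Txn2 was, thioredoxin Txn1 was 1.96-fold higher (edgeR adjusted p = 0.000167), whereas its reductase Txnrd1 averaged 273 ± 50.7 CPM at 30 h and 270 ± 4.24 CPM at day 0 (edgeR adjusted p = 0.927). Txnrd1 was called higher without 30 h replicate 3 (log2 change 0.15, edgeR adjusted p = 0.0487) and lower with totals only (-0.47, edgeR adjusted p = 0.0197). Ccs, the chaperone that loads copper into Sod1, was 2.37-fold higher (edgeR adjusted p = 3.63e-05), and the copper carrier Atox1 2.24-fold higher (edgeR adjusted p = 0.000155).

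Among relatives of the enzymes, 4 of 5 listed genes could be tested, of which 3 (75%) were higher and 1 (25%) lower. Of all genes, 34.4% were higher and 40.1% lower. The median log2 change of the 4 was 0.98. Fam213a (Prxl2a), a peroxiredoxin-like protein, averaged 307 ± 39.9 CPM at 30 h and 41.5 ± 0.41 CPM at day 0, a 7.39-fold difference (edgeR adjusted p = 1.07e-06). Sod3, the secreted superoxide dismutase, had 0, 1 and 0 counts in the 30 h libraries, against 49, 42 and 34 counts in the day 0 libraries, and was called lower.

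Glutathione enzymes, the parallel route for peroxide removal, were mostly higher. Of 12 genes, 8 (66.7%) were higher, 3 (25%) lower and 1 not past the threshold. Of all genes, 34.4% were higher and 40.1% lower. The median log2 change of the 12 was 0.98. Gpx1, the cytosolic glutathione peroxidase, averaged 7241 ± 1621 CPM at 30 h and 1417 ± 57.5 CPM at day 0, a 5.11-fold difference (edgeR adjusted p = 8.69e-06), close to that of Prdx2. Gpx4, which reduces lipid peroxides, was 4.82-fold higher (edgeR adjusted p = 2.56e-05). Gclc and Gclm, the subunits of the rate-limiting enzyme of glutathione synthesis, were 3.97-fold and 3.68-fold higher (edgeR adjusted p = 6.34e-06 and 5.19e-06). Glrx5, a mitochondrial glutaredoxin that works in iron-sulfur cluster assembly, was also higher, at 1298 ± 126 CPM at 30 h and 324 ± 10.02 CPM at day 0 (edgeR adjusted p = 2.3e-06). Gpx7 and Gpx8, peroxidases of the endoplasmic reticulum, were 8.80-fold and 3.25-fold lower (edgeR adjusted p = 1.1e-05 and 0.00182), with Gpx7 at 1.48 ± 0.52 CPM at 30 h and 12.8 ± 0.70 CPM at day 0.

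Of 10 transcription factors and their partners that control antioxidant or erythroid genes, 7 (70%) were higher at 30 h, 0 lower and 3 not past the threshold. Of all genes, 34.4% were higher and 40.1% lower. The median log2 change of the 10 was 1.15. By unadjusted edgeR p under 0.05, 1 of the 10 was lower. It was Keap1, named after its values were seen, with a log2 change of -0.33 (edgeR adjusted p = 0.0537). DESeq2 and limma-trend each called 1 of the 10 lower. Foxo3, a forkhead factor known to act on antioxidant genes in erythroblasts, had 601, 440 and 272 CPM in the 30 h libraries, against 73.0, 73.3 and 76.0 CPM in the day 0 libraries. It was far apart between the groups, with a 5.91-fold difference (edgeR adjusted p = 6.02e-05). Replicate 3 was its lowest library at 30 h, as for Cat, Mafg, Mafk, Bach1, Nfe2l1, Keap1, Gata1 and Klf1, though not for Nfe2 or Nfe2l2. The share of all genes that were lowest in replicate 3 was not counted. This low is thus not particular to Foxo3 and Cat. Mafg, a small partner of NRF2, NFE2 and BACH1, was 4.62-fold higher (edgeR adjusted p = 3.37e-06), Nfe2 3.87-fold (edgeR adjusted p = 1.19e-06) and the repressor Bach1 2.54-fold (edgeR adjusted p = 0.000184). The erythroid factor Gata1 was 2.52-fold higher (edgeR adjusted p = 1.48e-05) and, like Klf1, is also counted among the 10 erythroid markers. Nfe2l2, which encodes NRF2 and was named after its values were seen, averaged 104 ± 1.88 CPM at 30 h and 97.9 ± 0.59 CPM at day 0 (edgeR adjusted p = 0.361).

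Of 11 other textbook NRF2 targets, 6 (54.5%) were higher, 2 (18.2%) lower and 3 not past the threshold. Of all genes, 34.4% were higher and 40.1% lower. The median log2 change of the 11 was 1.65. That is the value of Taldo1, and the next gene below it, Me1, was at 0.25, so the median lies at the edge of a gap. Ftl1, among the 6 higher, was counted at only 8.84 ± 1.15 CPM at 30 h and 1.47 ± 0.33 CPM at day 0. These 3 genes were named after their values were seen. Nqo1, a quinone reductase, averaged 123 ± 11.1 CPM at 30 h and 10.9 ± 0.72 CPM at day 0, an 11.3-fold difference (edgeR adjusted p = 5.5e-07). Osgin1, an oxidative stress-induced growth inhibitor, was 3.67-fold lower (edgeR adjusted p = 5.81e-05). Of 12 enzymes that make superoxide or hydrogen peroxide, 6 (50%) were higher, 4 (33.3%) lower and 2 not past the threshold, beside the same shares of all genes. The median log2 change of the 12 was 0.21. Ero1l, which oxidises protein thiols in the endoplasmic reticulum, was 5.93-fold higher (edgeR adjusted p = 6.91e-07). The mitochondrial amine oxidase Maob averaged 1.17 ± 0.63 CPM at 30 h and 32.3 ± 4.05 CPM at day 0, a 28.1-fold difference towards lower (edgeR adjusted p = 3.86e-06).

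Of 21 genes for assembly and matrix enzymes of the peroxisome, the organelle of catalase, 2 were higher, 11 (52.4%) lower and 8 not past the threshold, where 34.4% of all genes were higher and 40.1% lower. The median log2 change of the 21 was -0.38. Ehhadh, an enzyme of peroxisomal fatty acid oxidation, was 3.13-fold lower (edgeR adjusted p = 4.62e-05), at 7.26 ± 1.48 CPM at 30 h and 22.8 ± 1.79 CPM at day 0. Pex3, which inserts peroxisomal membrane proteins, was 1.61-fold higher (edgeR adjusted p = 0.00122). It was not called with totals only (log2 change 0.19, edgeR adjusted p = 0.159), against a 1.5-fold minimum (edgeR adjusted p = 0.136) or with each library's GC trend removed, where the log2 change was 0.061 (edgeR adjusted p = 0.608). Liver cells are known for peroxisomal fatty acid oxidation. Of the 11 hepatoblast markers, 9 were lower at 30 h and 2 did not pass the threshold. Among the 9 was Alb, named after its values were seen, at 21.1-fold lower (edgeR adjusted p = 1.18e-05). The part of cell make-up in the changes of the peroxisome genes was not tested. With totals only, 0 of the 21 peroxisome genes were called higher and 18 lower, where 54.4% of all genes were called lower.

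**Figure D4:**
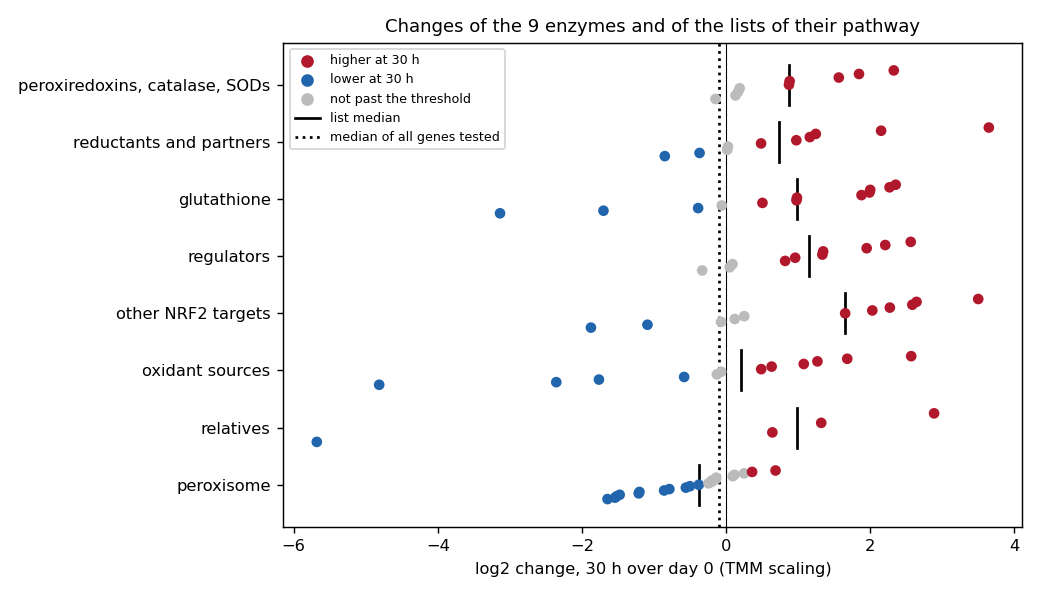
Log2 change, 30 h over day 0, of each tested gene in the 9 enzymes and the 7 lists of their pathway, coloured by call, with a bar at each list's median and a dotted line at the median of all genes. Prdx2, Cat and Prdx3 lie furthest to the right in the top line, and the peroxisome list has its median at -0.38; the leftmost point, Sod3, rests on 0 to 1 counts in the 30 h libraries and its fitted size is no bound.

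Of the genes with at least 90% identity over at least 200 bases to a transcript of Prdx1, Prdx2, Prdx6 or Sod1, the largest was Gm8566, a processed pseudogene of Sod1, with at most 0.196% of the counts of Sod1. Its match was 97.8% identical over 465 bases. A low count of a copy does not exclude that reads were lost from both genes. For Sod2, a stretch of 3110 bases was 98.2% identical to a transcript of Rps6ka2, and Rps6ka2 had up to 10.7% of the counts of Sod2. A shorter stretch of 204 bases was 90.7% identical to a transcript of Cct6a, a gene with 9323 counts on average at 30 h and 31660 at day 0, up to 764% of the counts of Sod2. Counting may have lost or divided reads from these stretches, so the level of Sod2 and its small change are uncertain.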

How the data were processed

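Gene counts of 6 RNA-seq libraries were used, 3 at 30 h and 3 at day 0, grouped by the labels. The authors deposited raw counts of reads per gene, with a file for each library, from total RNA per the labels' protocols. Tools in the submitters' processing notes are HTSeq 0.6.1p1, STAR, DESeq2 and cutadapt 1.13, with build mm10; their settings and strandedness are not given in the sources used here. Of 54232 gene IDs, 54165 were found in GENCODE M21, which gave symbols, positions and exon lengths.

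Counts were filtered with filterByExpr (16150 genes kept), scaled by TMM, with factors from 0.82 to 0.873 at 30 h and from 1.18 to 1.19 at day 0, and tested with edgeR 4.0.16 (R 4.3.3), robust quasi-likelihood F test, on the deposited counts. Standard errors of log2 changes were derived from the F statistic. Fold values are those of the fit. For shares and ratios, exact two-sided permutation tests were run in scipy 1.17.1. Copies were searched with blastn 2.17.0, and promoter sequences are RefSeq's. On simulated data of 15777 genes, 13.3%, 71.7% and 87.0% of genes changed by 1.5-fold, 2-fold and 4-fold were called, and 7 unchanged genes. Few genes were changed there, in random directions, and each gene had the same dispersion in both groups. The simulation therefore does not measure error under the wide changes and unequal spread of the data. No replicate was a copy of another: the chi-square per degree of freedom between replicates was at least 4.02.

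The members and lists were chosen with earlier results of these data known. Named genes are all members, the 5 nearest in pattern to Prdx2 and Cat, and, per list, the called genes with at least a 2-fold change among partners, glutathione enzymes and regulators, the largest rise and fall in the other pathway lists and the most abundant marker in the cell type lists, with exceptions marked in the text. Alternatives were other scalings and filters, DESeq2 1.42.0, limma-trend 3.58.1, a replicate block, a 1.5-fold minimum in the test, GC-trend removal and leaving out each library.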

Additional observations from a re-analysis of the deposited data

How the results depend on the processing

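Prdx2, Prdx3, Prdx5, Cat and Sod1 were called higher under each of the 18 alternatives run, and their lowest log2 changes were 1.83, 1.07, 0.38, 1.36 and 0.39. With library totals only, 3601 of all genes were higher, 3 of the 9 enzymes were lower (Prdx4, Prdx6 and Sod2) and 38 genes of the pathway lists were lower; 1 enzyme, Prdx6, was lower with upper-quartile scaling, and 15 list genes were lower when tested against a 1.5-fold change. Log2 changes that turned round were those of Prdx1 (totals only -0.31, GC trend removed -0.15, and -0.041 to 0.40 with a library left out, lowest without 30 h replicate 3), Prdx4 (-0.36 by totals only, -0.049 to 0.31 with a library left out, lowest without 30 h replicate 3) and Sod2 (-0.32 by totals only, -0.18 with the GC trend removed). Txnrd1 turned to -0.47 by totals only, -0.13 by upper quartile, -0.082 without a filter, -0.0019 by limma-trend and -0.010 with the GC trend removed, and spanned -0.061 to 0.15 with a library left out. Nfe2l2 turned to -0.40, -0.043 and -0.0022 under the first 3 of these settings and to -0.047 with the GC trend removed. Egfl7 turned to -0.11 by totals only. Csf1r turned to 0.020 with DESeq2 size factors, 0.019 in the DESeq2 Wald test and to 0.12 with the GC trend removed, and spanned -0.23 to 0.12 with a library left out. The causes were not tested. With raw counts in place of counts per kilobase, the differences in share, in percentage points, were 29.5 for Prdx2, -3.39 for Prdx4, -2.30 for Prdx5 and -18.4 for Prdx6. With the longest protein-coding transcript they were 27.8 for Prdx2, -6.11 for Prdx4, -13.6 for Prdx6 and -5.67 for Prdx1. With globin genes left out of the total, the enzymes' percent of all counts differed by 0.2997.

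The correlations of same-numbered libraries' deviations were -0.105, 0.105 and -0.0293, and those of other pairs ran from -0.108 to 0.141. With so few libraries in a group, these values cannot decide whether the replicate numbers pair the libraries. A fit with a replicate block called 5 enzymes higher and 0 lower, and 5254 of all genes higher and 6277 lower. Txnrd1 then turned to -0.0015. The block with the GC trend removed gave log2 changes of -0.18 for Prdx1, -0.0042 for Prdx4, -0.18 for Sod2, -0.026 for Txnrd1, -0.047 for Nfe2l2 and 0.10 for Csf1r. Leaving out each library in turn gave 5 to 6 enzymes higher and 0 lower, 37 to 42 list genes higher and 20 to 25 lower, and, of all genes, 5041 to 6233 higher and 5976 to 7008 lower.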
